A study of Mus musculus with 23 samples.

Results

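The genes described here encode the calcium switch of skeletal muscle fibres: the slow troponins Tnnc1, Tnni1 and Tnnt1, the fast troponins Tnnc2, Tnni2 and Tnnt3, and the tropomyosins Tpm1, Tpm2 and Tpm3. Members were all probe sets whose platform annotation names 1 of these genes and no other, which gave 20 of 22626 probe sets and 9 of the 12393 genes named in this way. Tnni1, Tnnt1, Tnnc1, Tnnt3 and Tnnc2 have 1 probe set each, Tnni2 and Tpm1 have 3 each, Tpm2 has 4 and Tpm3 has 5. The rule used no expression value. Where a gene has several probe sets, its level is that of the brightest over all arrays. The others are given beside it between the muscles and, between housing groups, where named.

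Expression was measured on 23 Affymetrix mouse arrays in *longissimus dorsi* (LD), a muscle that runs along the spine, and in tongue (TN), 1 array per tissue sample, all from adult male mice, whose strain is written C57/BL6 in the labels and C57BL/N6 in the description of the design. Bion Flown (BF) mice spent 30 days in microgravity aboard the Bion M1 biosatellite, Bion Ground (BG) mice were kept in the flight habitat under normal gravity, and Flight Control (FC) mice lived in a standard animal facility. There were 5 BF, 5 BG and 5 FC arrays of *longissimus dorsi*, and 3 BF, 3 BG and 2 FC arrays of tongue. Tissue of flown mice was taken some hours after landing, so flight, landing and return are part of the BF condition, and the labels do not say whether the muscles came from the same mice.

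A muscle fibre contracts when calcium binds troponin C, troponin I then releases actin, and tropomyosin, which lies along the actin filament and is anchored by troponin T, moves and uncovers the sites for myosin. Slow and fast fibres make different isoforms of each subunit, so that these transcripts follow the fibre types of a muscle. Mammalian heart uses the same troponin C as slow fibres, with its own troponin I and troponin T. Of the tropomyosins, Tpm3 is known for the slow fibre isoform, Tpm1 for the fast and cardiac isoform and Tpm2 for the beta isoform found in both fibre types. All 3 tropomyosin genes also give non-muscle isoforms through alternative promoters and splicing.

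Troponin I and troponin T genes lie side by side on the mouse genome: in RefSeq, Tnni2 and Tnnt3 are separated only by Lsp1, Tnni1 and the cardiac Tnnt2 only by Lad1, and Tnnt1 lies next to the cardiac Tnni3. RefSeq promoters (GRCm38.p6) were given for 7 of the 9 genes, with Tnni2 and Tnnt3 not among them. The 120 bases before an annotated start are shown for the slow troponins, whose levels moved together from array to array. They are also shown for the fast Tnnc2, whose level varied little between the arrays of *longissimus dorsi*. Both starts of Tpm3 are shown too, as its probe sets went in opposite directions between the muscles. Capitals mark matches, on either strand, to the TATA box TATAAA, the E-box CANNTG, the M-CAT element CATTCC or the MEF2 type site (CTA and TAG with 4 bases between them). No printed match overlaps another.
Tnnc1, chr14:31208192-31208311, plus strand: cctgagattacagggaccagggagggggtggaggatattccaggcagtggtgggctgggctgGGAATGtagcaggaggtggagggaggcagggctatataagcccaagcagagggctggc
Tnni1, chr1:135799301-135799420, plus strand: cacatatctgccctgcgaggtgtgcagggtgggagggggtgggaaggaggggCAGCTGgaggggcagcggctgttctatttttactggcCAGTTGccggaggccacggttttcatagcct
Tnnt1, chr7:4515976-4516095, minus strand: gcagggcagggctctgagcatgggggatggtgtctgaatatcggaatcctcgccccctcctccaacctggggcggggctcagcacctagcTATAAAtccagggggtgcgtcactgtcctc
Tnnc2, chr2:164779735-164779854, minus strand: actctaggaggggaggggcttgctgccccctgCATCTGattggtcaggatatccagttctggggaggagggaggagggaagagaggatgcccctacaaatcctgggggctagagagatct
Tpm3, first start, chr3:90072531-90072650, plus strand: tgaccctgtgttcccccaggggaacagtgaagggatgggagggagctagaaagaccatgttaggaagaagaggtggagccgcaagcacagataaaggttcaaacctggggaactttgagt
Tpm3, second start, chr3:90079401-90079520, plus strand: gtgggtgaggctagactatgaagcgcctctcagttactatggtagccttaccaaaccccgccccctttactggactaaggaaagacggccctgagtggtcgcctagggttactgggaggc

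Tnnt1 holds the letters TATAAA, whose first base lies 30 bases before the start, and these are in 6.34% of 32851 promoter stretches of the same length. Only these exact letters were searched, so a variant of the TATA box is not marked. Tnnc1 holds the M-CAT element, 58 bases before the start, which is in 5.82% of them. E-boxes, which myogenic factors such as MyoD bind, were found in Tnni1 at 68 and 31 bases and in Tnnc2 at 88 bases before the start, and in 40.2% of the stretches. Tnni1 has a second annotated start nearby, whose stretch (chr1:135799391-135799510) overlaps the printed one and holds none of the 4 motifs. Which start the fibres used was not measured. The MEF2 type site is in 1.42% of the stretches and in none of those printed. These are matches of letters, and no binding was measured.

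Markers of the labelled tissues were where the labels put them. In *longissimus dorsi* the summed level of 6 skeletal fibre markers ranged from 16.55 to 16.68 on the log2 scale, and in tongue from 16.13 to 16.49. The summed level of 8 oral epithelium markers ranged from 8.23 to 8.73 in *longissimus dorsi* and from 16.08 to 16.39 in tongue, and all 8 were higher in tongue, by 5.47 to 10.07. The values of a probe set are on the log2 scale (RMA) and lie between 2.24 and 14.5, and the array medians ranged from 6.42 to 6.61. FC replicate 2 of *longissimus dorsi* stood apart in the slow genes, and results that rest on it are given with and without it.

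To compare the muscles, all 6 groups were fitted in 1 limma model, with Benjamini-Hochberg adjustment over all probe sets, and the difference was averaged over BG and FC mice. The slow genes were far higher in *longissimus dorsi* than in tongue, and the brightest probe sets of the fast genes differed by less than 2-fold. All 20 probe sets passed an adjusted p of 0.05, 16 higher and 4 lower in *longissimus dorsi*, in a comparison in which 64.3% of all probe sets passed. With the further criterion of 2-fold, 12 were called, 10 higher and 2 lower, against 13.9% of all probe sets. The median difference of the 20 was 0.94 on the log2 scale, and that of all probe sets was 0.155. In a piece of muscle, fewer fibres of a type and less RNA per fibre cannot be told apart.

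Tnnc1, the calcium sensor of slow fibres, was 12.03, 12.49, 10.85, 12.06 and 12.27 in the 5 BF arrays of *longissimus dorsi*, 12.02, 12.90, 12.37, 12.52 and 13.17 in BG, and 12.41, 9.21, 11.71, 12.36 and 12.62 in FC. In tongue it was 6.86, 7.74 and 6.59 in BF, 8.17, 6.51 and 9.21 in BG, and 5.90 and 6.13 in FC. Every other array of *longissimus dorsi* lay above every array of tongue, and FC replicate 2 lay at the level of the highest tongue array. The muscles differed by 5.14 (standard error 0.458, adjusted p = 1.64e-09), or 35.3-fold.

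Tnni1, the slow inhibitory subunit, was 10.47, 11.24, 9.10, 10.73 and 10.96 in BF, 10.84, 11.69, 11.32, 11.29 and 11.95 in BG, and 10.87, 7.94, 10.10, 10.98 and 11.32 in FC arrays of *longissimus dorsi*. In tongue it was 6.07, 6.90 and 5.82 in BF, 7.44, 6.37 and 8.12 in BG, and 5.89 and 5.76 in FC. FC replicate 2 of *longissimus dorsi* lay below the BG tongue array at 8.12, and the muscles did not otherwise overlap. The difference was 4.26 (standard error 0.430, adjusted p = 1.24e-08), or 19.2-fold.

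Tnnt1, which fixes the slow complex to tropomyosin, was 11.32, 12.09, 10.34, 11.49 and 11.75 in BF, 10.90, 12.02, 11.72, 11.51 and 12.71 in BG, and 11.91, 8.65, 11.23, 11.71 and 12.26 in FC arrays of *longissimus dorsi*. In tongue it was 6.58, 7.10 and 5.67 in BF, 7.48, 5.96 and 8.48 in BG, and 6.62 and 6.39 in FC. The muscles did not overlap, although FC replicate 2 and BG tongue replicate 3 were close. The difference was 4.55 (standard error 0.477, adjusted p = 2.29e-08), or 23.5-fold.

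**Figure D1:**
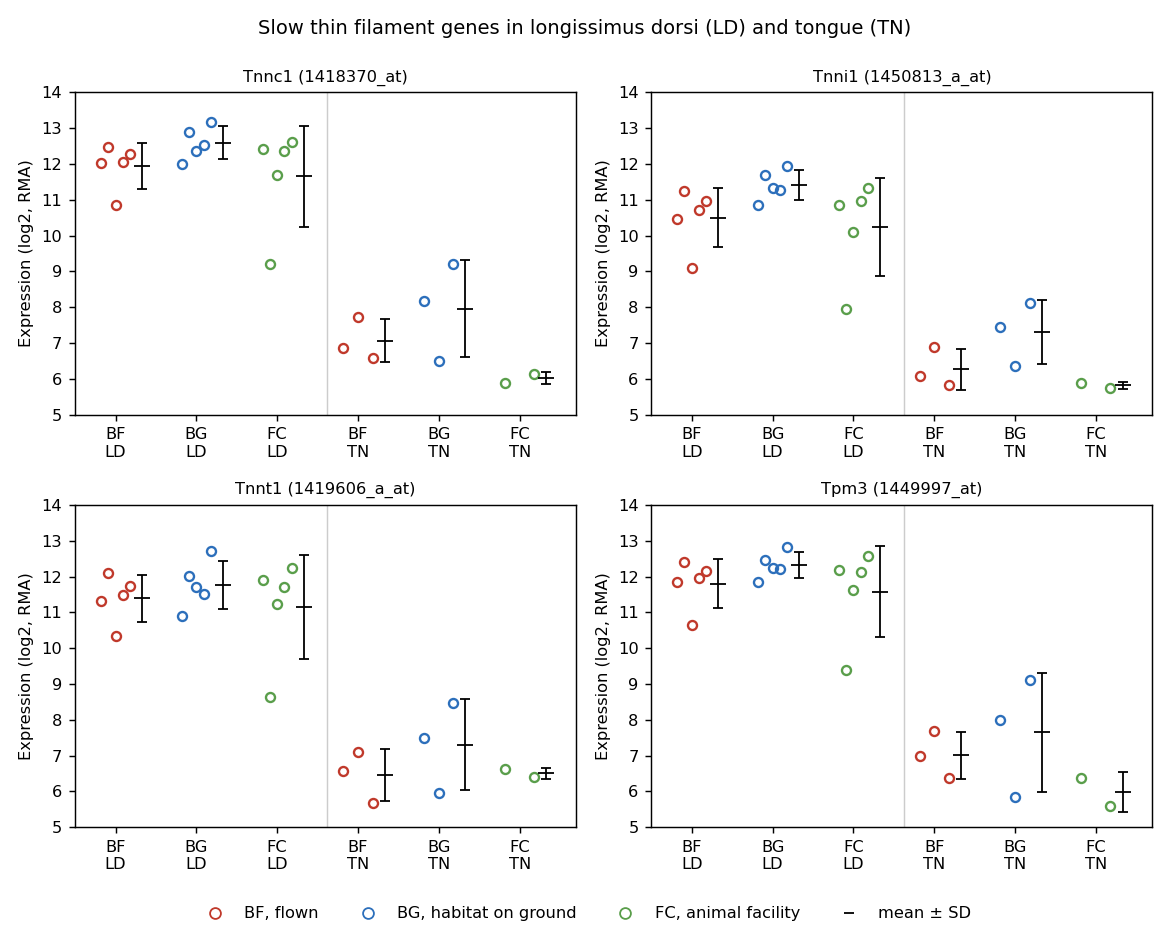
Log2 expression (RMA) of the slow troponins Tnnc1, Tnni1 and Tnnt1 and of the brightest probe set of Tpm3 in the 6 groups of muscle by housing. Circles are arrays and black bars are the mean ± SD. FC replicate 2 is the lowest circle of *longissimus dorsi* in each panel, at 9.21, 7.94, 8.65 and 9.39, and the 3 BG tongue arrays spread more widely than the 2 FC tongue arrays.

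Tpm3 gave opposite directions from its own probe sets. The brightest, 1449997_at, was 11.86, 12.42, 10.65, 11.97 and 12.15 in BF, 11.85, 12.47, 12.24, 12.22 and 12.84 in BG, and 12.19, 9.39, 11.63, 12.12 and 12.57 in FC arrays of *longissimus dorsi*. In tongue it was 6.98, 7.69 and 6.38 in BF, 8.0, 5.84 and 9.12 in BG, and 6.39 and 5.59 in FC. This is the pattern of the slow troponins, with the same low array in *longissimus dorsi* and the same order of the BG tongue arrays. It was higher in *longissimus dorsi* by 5.13 (standard error 0.468, adjusted p = 2.41e-09), and 1449996_a_at by 5.90 (standard error 0.488, adjusted p = 4.53e-10), or 59.8-fold.

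The other 3 probe sets of Tpm3 were higher in tongue. For 1427260_a_at, the arrays of *longissimus dorsi* ranged from 8.66 to 10.48 and those of tongue from 10.61 to 11.08, without overlap. Its difference was -1.53 (standard error 0.197, adjusted p = 5.25e-07). The differences of 1427567_a_at and 1436958_x_at were -1.09 (standard error 0.155) and -0.51 (standard error 0.107), with adjusted p = 2.31e-06 and 0.000289. Probe sets whose names end in a_at match several transcripts of a gene and those in x_at can also match other sequences. Which Tpm3 transcripts each of them reads is not given in the sources used here.

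**Figure D2:**
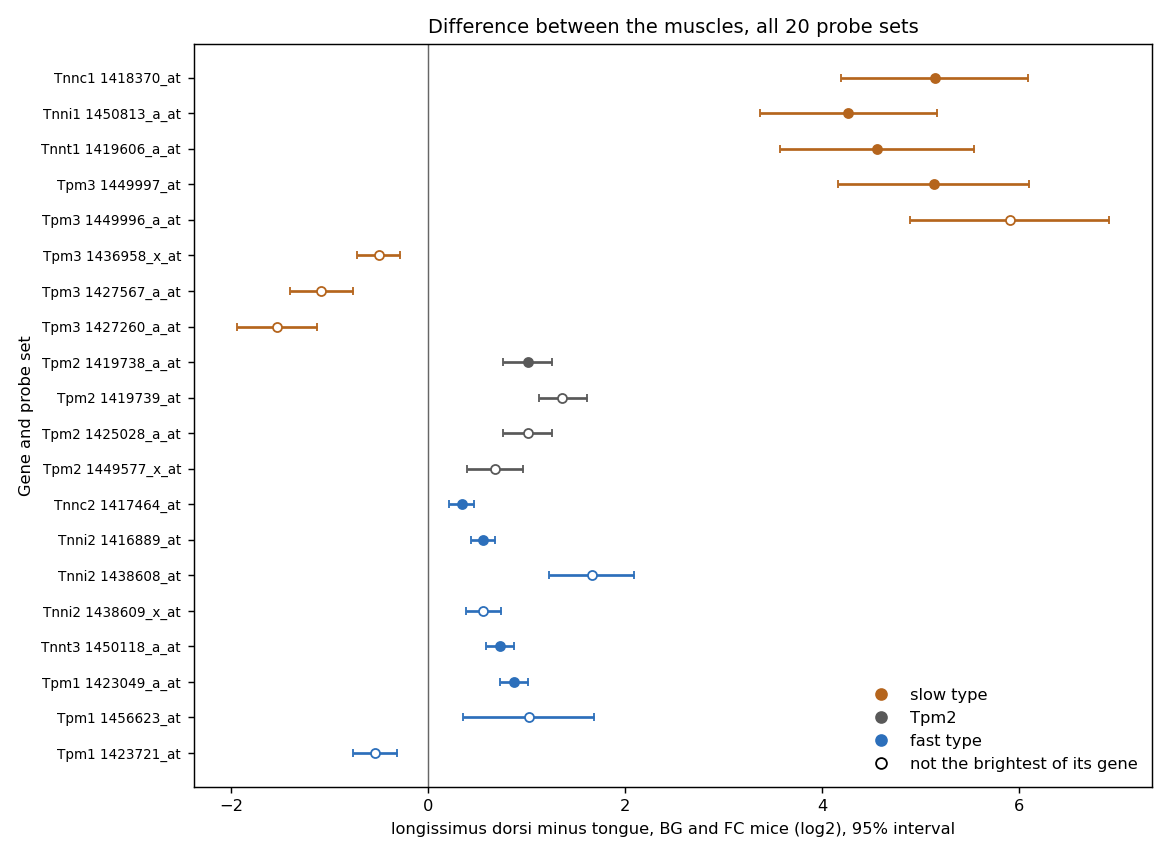
Difference between *longissimus dorsi* and tongue, averaged over BG and FC mice, for all 20 probe sets of the 9 genes, as log2 values with 95% intervals from limma. The 3 slow troponins and 2 probe sets of Tpm3 lie between 4.26 and 5.90, the fast genes and Tpm2 mostly between 0 and 2, and 3 probe sets of Tpm3 and 1 of Tpm1 below 0.

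Fast isoforms were close to the top of the array's range in both muscles. Tnni2, the fast inhibitory subunit, ranged from 14.20 to 14.45 over the 15 arrays of *longissimus dorsi* and from 13.67 to 13.98 over the 8 arrays of tongue. Tnnc2, the fast calcium sensor, ranged from 14.22 to 14.31 and from 13.65 to 14.07, and Tnnt3, the fast tropomyosin-binding subunit, from 13.76 to 14.00 and from 13.03 to 13.43. In none of the 3 did the muscles overlap.

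The differences were 0.34 for Tnnc2 (standard error 0.0623, adjusted p = 6.69e-05), 0.55 for Tnni2 (standard error 0.0598, adjusted p = 3.76e-08) and 0.73 for Tnnt3 (standard error 0.0682, adjusted p = 3.95e-09). Of the 6 skeletal fibre markers, 5 were also higher in *longissimus dorsi*: Myh4 by 0.24, Ttn by 0.41, Acta1, the actin of the thin filament, by 0.42, Ckm by 0.51 and Des by 0.87. Mb, the oxygen store myoglobin, differed by -0.14 and did not pass. The 95% intervals of the slow troponins began at 3.37 or higher, and those of Tnnc2, Tnni2 and Tnnt3 ended at 0.87 or lower. The difference between these differences was not tested. The highest value on any array was 14.5, and how far the top of the range compresses the differences of the fast genes was not tested.

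The other 2 probe sets of Tnni2 differed from each other: 1438609_x_at by 0.56 and 1438608_at, the dimmest of the gene, by 1.66 (standard error 0.208), or 3.16-fold. Tpm1, the fast and cardiac tropomyosin, was higher in *longissimus dorsi* by 0.87 in its brightest probe set (standard error 0.0705, adjusted p = 3.28e-10) and by 1.02 in 1456623_at, but 1423721_at was lower there, with a difference of -0.54 (standard error 0.106, adjusted p = 0.000132). All 4 probe sets of Tpm2, the beta tropomyosin, were higher in *longissimus dorsi*, by 0.68, 1.01, 1.01 and 1.36 (adjusted p from 1.07e-09 to 0.000174). The brightest of them ranged from 12.55 to 13.29 in *longissimus dorsi* and from 11.56 to 12.36 in tongue, without overlap.

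**Figure D3:**
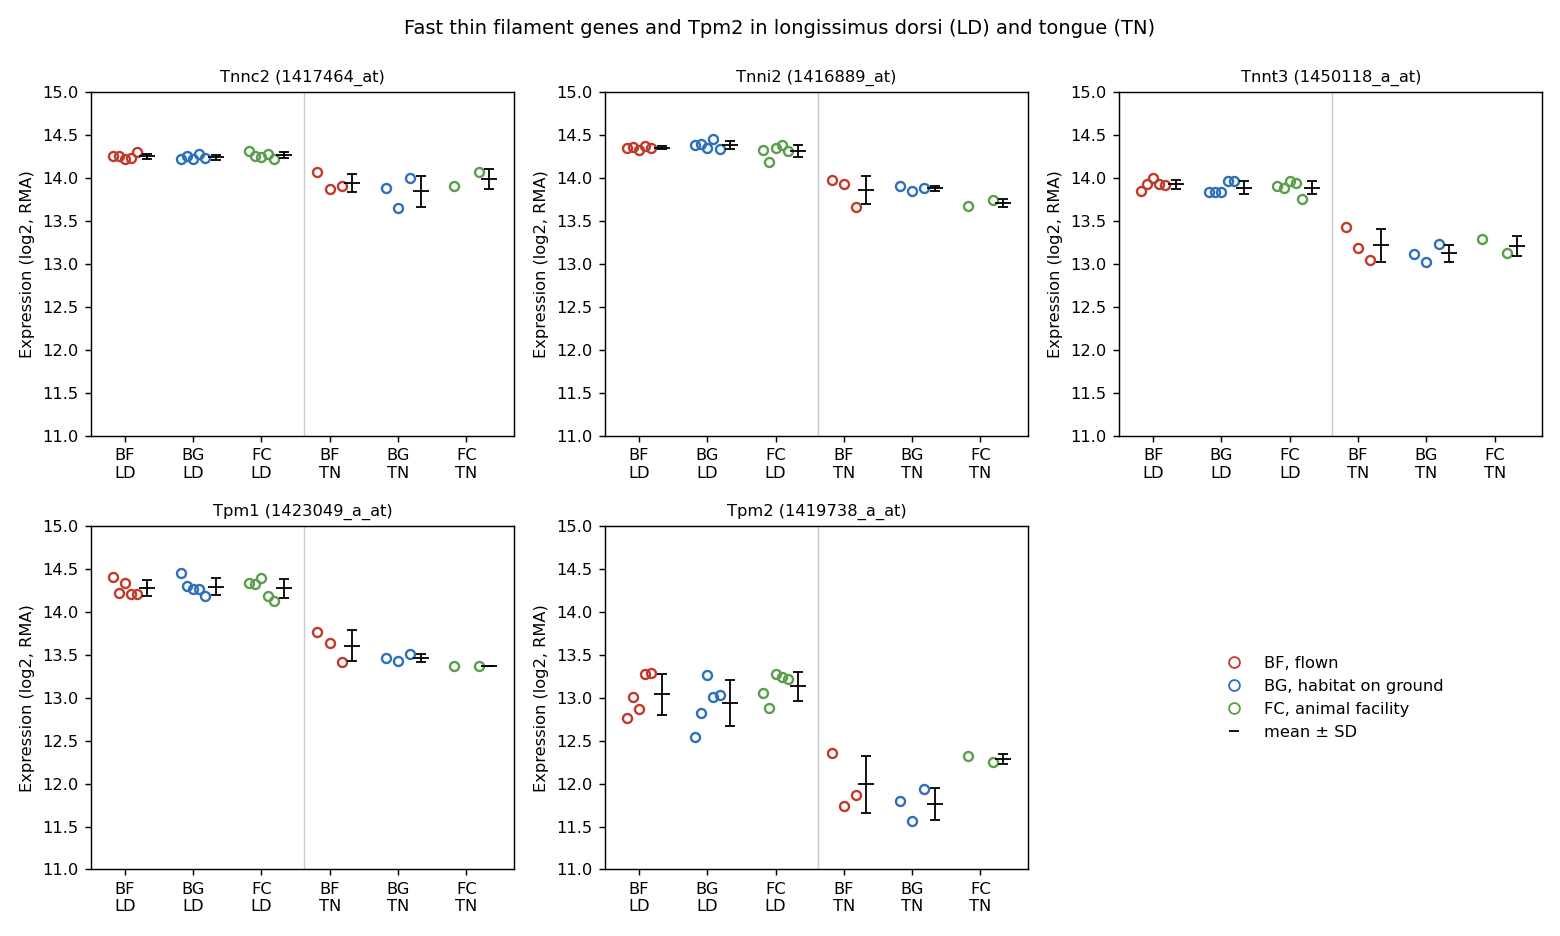
Log2 expression (RMA) of the brightest probe sets of Tnnc2, Tnni2, Tnnt3, Tpm1 and Tpm2 in the 6 groups, with circles for arrays and black bars for the mean ± SD. The axis spans 4 log2 units. The arrays of *longissimus dorsi* and tongue do not overlap in any panel, and the housing groups overlap within *longissimus dorsi* in every panel.

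The direction held in BG, FC and BF mice taken alone for all 20 probe sets, and 19 of them passed in each housing group. The exception was Tpm1 1456623_at, which was higher in *longissimus dorsi* by 0.94 within BG, 1.10 within FC and 0.70 within BF (adjusted p = 0.0653, 0.0665 and 0.186). Over all alternatives, the difference ranged from 4.63 to 5.65 for Tnnc1, from 3.96 to 4.55 for Tnni1, from 4.22 to 4.95 for Tnnt1 and from 0.28 to 0.43 for Tnnc2.

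Partners of the thin filament were measured for 11 of 15 listed genes, and 9 were higher and 2 lower in *longissimus dorsi* (median 0.70). Of all probe sets, 64.3% passed in this comparison, and the median difference of all was 0.155. Tmod1 and Tmod4, which cap the pointed end of actin, were higher by 1.81 and 1.75, and Tpm4, a mostly non-muscle tropomyosin, was lower, at -1.57 (adjusted p = 3.13e-14, 1.38e-13 and 2.80e-10). The cardiac Tnnt2 was higher by 1.37, with group means from 6.87 to 6.95 in *longissimus dorsi* and from 5.05 to 5.97 in tongue. The cardiac Tnni3 had group means from 4.17 to 4.54 in all 6 groups and differed by 0.24 (adjusted p = 0.0354).

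Of 11 other slow fibre genes, 9 were higher in *longissimus dorsi* and 0 lower (median 1.63). All 11 measured fast fibre genes were higher (median 1.42). For all probe sets the median was 0.155, and 64.3% passed. Of the slow genes, Myl3, a light chain of slow myosin, was higher by 3.08, the stretch-regulated Ankrd2 by 2.90 and the Z-disc protein Myoz2 by 2.16 (adjusted p = 9.86e-12, 8.82e-10 and 8.08e-09). Of the fast genes, the kinase of the myosin light chain Mylk2 was higher by 3.66, the Z-disc protein Myoz1 by 1.42 and the calcium buffer Casq1 by 2.50 (adjusted p = 5.24e-15, 2.46e-14 and 3.45e-12). Of 18 measured regulators of fibre type, 14 were higher and 0 lower (median 0.60), beside the 64.3% of all probe sets that passed. Among them were both catalytic subunits of calcineurin, Ppp3cb by 2.02 and Ppp3ca by 1.11, and Sox6, a repressor of slow genes, by 1.99 (adjusted p = 1.07e-15, 2.20e-11 and 1.60e-10).

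In their brightest probe sets, the slow genes varied between mice of 1 housing group far more than the fast genes. In FC arrays of *longissimus dorsi* the SD was 1.41 for Tnnc1, 1.36 for Tnni1, 1.45 for Tnnt1 and 1.27 for Tpm3 (n = 5), each larger than the SD of at least 99.8% of all probe sets. These values rest on FC replicate 2: without it the SDs were 0.395, 0.514, 0.428 and 0.384 (n = 4), each larger than that of at least 93.4% of all probe sets. With all arrays the SDs were 0.64, 0.83, 0.66 and 0.68 in BF and 0.45, 0.42, 0.66 and 0.36 in BG, where the median SD of all probe sets was 0.152 and 0.198. The brightest probe sets of the fast troponins had SDs between 0.017 and 0.079 in the 3 groups. For Tnnc2 at most 0.451% of all probe sets had a smaller one. The mean of the 3 slow troponins had an SD 47.5 times that of the mean of the 3 fast troponins in BF, 13.5 times in BG and 29.7 times in FC. Leaving out each array in turn, this ratio ranged from 17.3 (without replicate 3) to 197 (without replicate 1) in BF, from 8.99 (without replicate 5) to 31.7 (without replicate 4) in BG and from 9.44 (without replicate 2) to 37 in FC. The brightest fast probe sets lie near the top of the range, and what part the scale has in their narrow spread was not tested. Dimmer probe sets of the same genes did not all follow. In BF, BG and FC the SD was 0.61, 0.75 and 0.86 for Tpm1 1456623_at and 0.23, 0.51 and 0.48 for Tnni2 1438608_at. For Tpm3 1436958_x_at it was 0.078, 0.34 and 0.14.

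Array by array, the slow genes rose and fell together. Over the 15 arrays of *longissimus dorsi*, Pearson's r between pairs of Tnnc1, Tnni1, Tnnt1 and Tpm3 was 0.945 to 0.993 and Spearman's rho 0.854 to 0.975 in all 6 pairs. Permutation tests with 100000 resamples, two-sided, gave an adjusted p of at most 1.3e-05 for r and 5.3e-05 for rho over the 8 relations computed, and 1e-05 was the smallest raw p they can give. Without BF replicate 3 and FC replicate 2, the arrays farthest from the median, r was 0.77 to 0.962. Deviations from the group means gave 0.976 to 0.994, and the 8 arrays of tongue 0.872 to 0.966.

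No relation of this strength was seen between the slow and the fast troponins. Their means gave r = 0.294 (permutation p = 0.28, adjusted 0.28) and rho = -0.0893 (permutation p = 0.75, adjusted 0.75) over the 15 arrays. Without BF replicate 3 and FC replicate 2, r was -0.0829. Deviations from the group means gave r = 0.27, and the 8 arrays of tongue 0.35. The fast troponins varied little near the top of the range, so a relation could have been missed. The Tpm3 probe sets 1449997_at and 1427260_a_at, which differed in direction between the muscles, gave r = 0.642 in *longissimus dorsi* (permutation p = 0.029, adjusted 0.033) and rho = 0.575 (permutation p = 0.028, adjusted 0.032), with r = 0.577 without the same pair of arrays. In tongue r was -0.156 over 8 arrays.

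**Figure D4:**
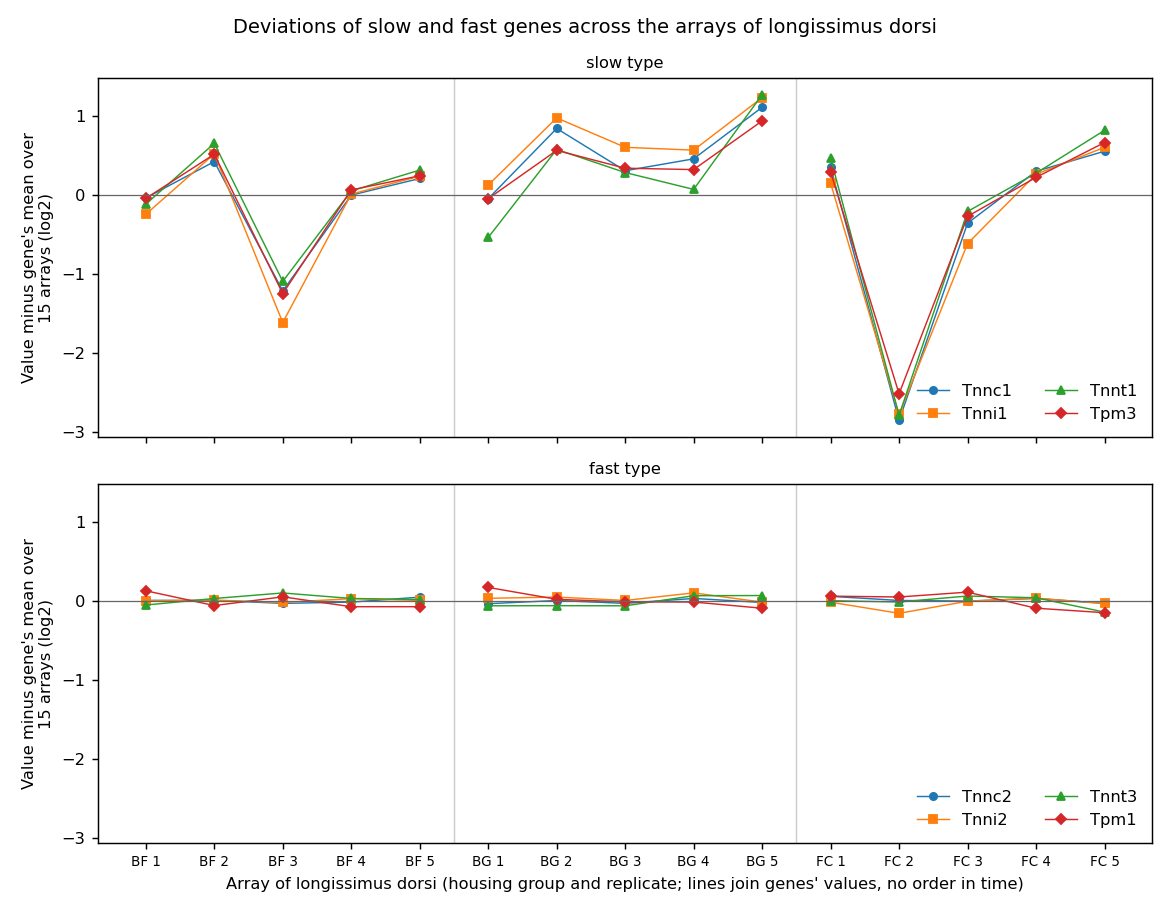
Log2 value of a gene's brightest probe set minus its mean over the 15 arrays of *longissimus dorsi*. Tnnc1, Tnni1, Tnnt1 and Tpm3 are in the upper panel and Tnnc2, Tnni2, Tnnt3 and Tpm1 in the lower, on the same scale. Lines join the arrays of a housing group and stand for no order in time. The slow genes dip together in BF replicate 3 and FC replicate 2, and the fast genes stay close to 0.

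FC replicate 2 of *longissimus dorsi* was lowest of its group in all 4 slow members, with a median difference of -2.97 from the mean of the other 4 arrays, while that of the fast members was -0.0062. It was also lowest in 8 of 11 other slow fibre genes, with a median of -0.96. In the same array the summed markers of macrophages were at 10.88 (others 11.33 to 12.03), of adipocytes at 11.98 (others 12.77 to 13.58) and of skeletal fibres at 16.58 (others 16.63 to 16.68). BF replicate 3 was lowest of its group in the 4 slow members (median difference -1.40) and in 5 of 11 other slow fibre genes. BG replicate 3 of tongue was highest of its group in the 4 slow members (median difference 1.82 from the other 2 arrays) and in 3 of 4 fast members (0.116). Of 11 other slow fibre genes it was highest in 6 and lowest in 4, with a median of 0.205. Of 11 fast fibre genes it was highest in 7 and lowest in 3, with a median of 0.209. What sets these arrays apart was not tested.

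Genes most like the slow troponins over the 15 arrays of *longissimus dorsi*, among 7074 candidates, were Myl2 (r = 0.955), the regulatory light chain of slow myosin, Atp2a2 (r = 0.909), the slow fibre calcium pump, Myh7 (r = 0.868), the slow myosin heavy chain, Myl3 (r = 0.865) and Lamtor1 (r = 0.845). Without FC replicate 2, r was 0.877, 0.866, 0.729, 0.924 and 0.733. For the fast troponins they were C86187 (r = 0.809), Cycs (r = 0.793), which is cytochrome c, ND5 (r = 0.773), a mitochondrial subunit of complex I, Ciao2a (r = 0.765) and Osbpl9 (r = 0.76). These genes were picked for a high r out of many, over arrays that share their housing groups, and the values are descriptions.

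To assess the effect of flight and housing in *longissimus dorsi*, flown mice were set against each ground control, and the ground controls against each other. None of the 20 probe sets passed in any of them. In BF vs. BG 0 of 20 passed, against 10.2% of all probe sets, in FC vs. BG 0 of 20 against 8.95%, and in BF vs. FC 0 of 20 against 3.66%. At an unadjusted p under 0.05 there were 0, 2 and 1, and the smallest adjusted p were 0.254, 0.0685 and 0.0634. The median difference of the 20 was -0.065, -0.046 and 0.038, and that of all probe sets -0.028, -0.010 and -0.026.

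Means of the slow genes were lowest in FC and highest in BG, with wide intervals. Tnni1 had means of 10.50 ± 0.83 in BF, 11.42 ± 0.42 in BG and 10.24 ± 1.36 in FC (SD, n = 5 each). BF minus BG was -0.92 (95% interval -1.93 to 0.10, adjusted p = 0.254 in limma) and FC minus BG -1.18 (-2.19 to -0.16, adjusted p = 0.137). In Tnnc1 the means were 11.94 ± 0.64, 12.60 ± 0.45 and 11.66 ± 1.41 (SD, n = 5 each), and BF minus BG was -0.66 (-1.74 to 0.42, adjusted p = 0.472). BF minus BG was -0.37 for Tnnt1 (-1.50 to 0.76) and -0.52 for Tpm3 (-1.62 to 0.59). These comparisons share the BG arrays. The intervals reach past 2-fold, so a change of that size in the slow genes could not be told from none with these arrays. For the Tpm3 probe sets 1427260_a_at, 1436958_x_at and 1427567_a_at, which were higher in tongue, BF minus BG was -0.13, -0.19 and 0.056.

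Without FC replicate 2, the FC minus BG difference of Tnni1 was -0.60 (adjusted p = 0.373), that of Tnnc1 -0.32, of Tnnt1 0.0058 and of Tpm3 -0.20, and again 0 of 20 probe sets passed in each of the 3 comparisons. BF minus FC then turned from 0.26 to -0.32 for Tnni1, from 0.28 to -0.34 for Tnnc1, from 0.25 to -0.38 for Tnnt1 and from 0.23 to -0.32 for Tpm3. None of these values passed with or without the array.

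The brightest probe sets of the fast genes were measured much more tightly. BF minus BG was 0.013 for Tnnc2 (95% interval -0.134 to 0.16), -0.029 for Tnni2 (-0.17 to 0.112), 0.036 for Tnnt3 (-0.125 to 0.197) and -0.020 for Tpm1 (-0.186 to 0.147). The intervals of FC vs. BG and BF vs. FC lay between -0.211 and 0.197 for the brightest probe sets of these 4 genes. Those of Tnni2 1438609_x_at and Tpm1 1423721_at lay between -0.352 and 0.282 in the 3 comparisons. For Tnni2 1438608_at they were wider: -0.625 to 0.357 in BF vs. BG, -0.708 to 0.273 in FC vs. BG and -0.407 to 0.574 in BF vs. FC. Tpm2 differed by 0.11 in BF vs. BG (-0.182 to 0.397) and 0.20 in FC vs. BG (-0.0921 to 0.487), and its other 3 probe sets by 0.14 to 0.22 and 0.14 to 0.23.

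The Tpm1 probe set 1456623_at, the dimmest of its gene but brighter than 53.2% of all probe sets, came closest to the threshold. Its values were 7.29, 6.57, 7.21, 6.27 and 5.87 in BF, 6.42, 7.05, 6.39, 6.15 and 8.0 in BG, and 6.90, 8.96, 8.57, 7.49 and 7.46 in FC. The FC arrays were mostly above the BF arrays, with overlap from 6.90 to 7.29, and BG replicates 2 and 5 lay within the range of the FC arrays. FC minus BG was 1.07 (95% interval 0.31 to 1.83, adjusted p = 0.0685) and BF minus FC -1.23 (-1.99 to -0.47, adjusted p = 0.0634), while the brightest Tpm1 probe set differed by -0.019 and -0.001. Without FC replicate 2, these differences were 0.80 (adjusted p = 0.198) and -0.96 (adjusted p = 0.174), and with array weights in limma both passed (adjusted p = 0.0305 and 0.00597).

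**Figure D5:**
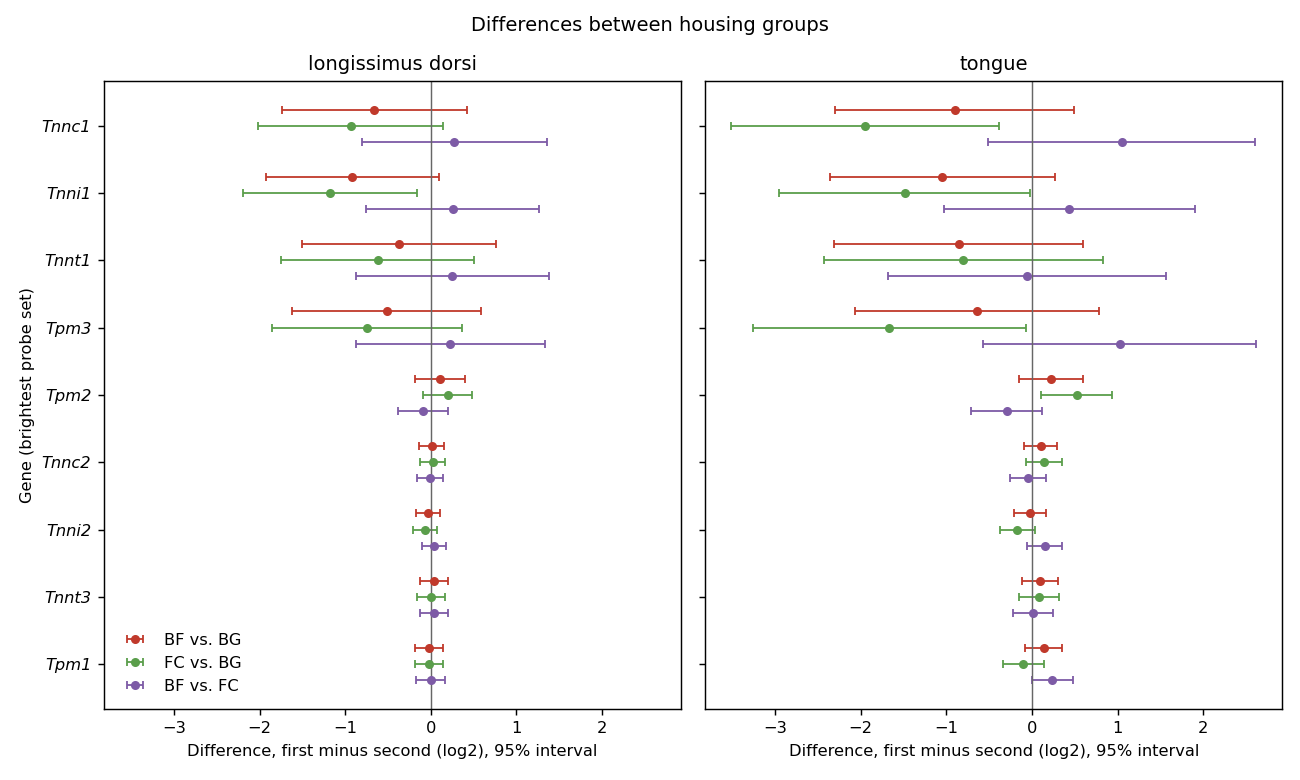
Differences between housing groups in the brightest probe set of each gene, as log2 values with 95% intervals from limma, in *longissimus dorsi* (left) and tongue (right). Intervals of the slow genes Tnnc1, Tnni1, Tnnt1 and Tpm3 are several times as wide as those of the fast genes. No difference passed an adjusted p of 0.05.

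Other genes of muscle fibres did pass in *longissimus dorsi*. Of the 11 slow fibre genes, Casq2, the calcium buffer of slow and cardiac muscle, fell in BF vs. BG, with a difference of -1.14 (standard error 0.214, adjusted p = 0.00189), as did Myoz2, with -0.88 (standard error 0.242, adjusted p = 0.0237). Both also fell in FC vs. BG, with -0.98 and -0.99 (adjusted p = 0.00798 and 0.0142), and 0 of 11 passed in BF vs. FC. In BF vs. BG and in FC vs. BG 2 of 11 passed in each, against 10.2% and 8.95% of all probe sets. Myh7 differed by 0.12 in BF vs. BG (95% interval -1.18 to 1.42). The median of the list was -0.47 there, and that of all probe sets was -0.028. Casq2 is among the genes the study itself listed as changed on these samples, so it is no independent evidence of a direction.

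Among the partners of the thin filament, 2 rose and 1 fell in BF vs. BG, out of 11. Lmod2 and Tmod1, which act at the pointed end of actin, were higher by 0.79 and 0.44 (adjusted p = 0.00656 and 0.00757), and Tpm4 was lower, at -0.74 (adjusted p = 0.00254). Lmod2 was also higher in BF than in FC, by 0.74 (adjusted p = 0.0178), and 0 of 11 passed in FC vs. BG. Of the 11 fast fibre genes, Mylk2 was higher in BF and in FC than in BG, by 0.65 and 0.80 (adjusted p = 0.0297 and 0.0111), and 0 of 11 passed in BF vs. FC.

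Of the 18 regulators of fibre type, 4 were higher and 0 lower in BF vs. BG, with a median of 0.23 (-0.028 for all probe sets). They were Ppp3cb by 0.39, Mef2c by 0.51 and Mef2a by 0.32 (adjusted p = 0.0109, 0.0139 and 0.0163), of which the Mef2 genes encode factors that bind muscle promoters, and Mef2d. In FC vs. BG 7 of 18 were higher and 0 lower, led by Mef2d (0.58), Nfatc1 (0.48), a calcineurin target, and Hdac5 (0.60), a repressor of Mef2 factors, with adjusted p = 0.0048, 0.00798 and 0.00916. In BF vs. FC 2 were lower: Ppargc1a, a coactivator of oxidative metabolism, with -0.78, and Nfatc1, with -0.40 (adjusted p = 0.00377 and 0.0327). These lists are described by counts, and no list was tested.

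Beside these results, the summed level of 7 macrophage markers in *longissimus dorsi* ranged from 10.66 to 12.30 in BF, from 11.54 to 13.52 in BG and from 10.88 to 12.03 in FC. Of the 7, Lyz2 alone passed in FC vs. BG and none in BF vs. BG. The summed level of 3 adipocyte markers ranged from 12.86 to 14.35 in BF, from 13.20 to 13.66 in BG and from 11.98 to 13.58 in FC. Of 6 smooth muscle markers, Tagln passed in BF vs. BG and FC vs. BG (means 9.26 in BF, 9.63 in BG and 9.24 in FC). Smtn passed in FC vs. BG (7.31 in BG and 7.86 in FC). The summed level of the 6 ranged from 13.36 to 13.55, 13.18 to 13.63 and 13.37 to 13.62. It mostly reflects Des, which is also a skeletal fibre marker, with group means of 13.04 to 13.21. The next highest marker, Acta2, had means of 10.10 to 10.27. Of 4 endothelium markers, whose summed level ranged from 9.53 to 10.03, 9.25 to 9.74 and 9.55 to 9.67, Cdh5 passed in BF vs. BG (8.43 in BF and 7.97 in BG). None of 3 adipocyte, 5 fibroblast or 5 cardiac markers passed in either comparison. Of all probe sets, 10.2% passed in BF vs. BG and 8.95% in FC vs. BG. What part these markers have in the results was not tested.

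In tongue, none of the 20 probe sets passed either. The counts were 0 of 20 in BF vs. BG, against 0.826% of all probe sets, 0 of 20 in FC vs. BG against 9.45%, and 0 of 20 in BF vs. FC against 2.24%. At an unadjusted p under 0.05 there were 2, 8 and 1, with smallest adjusted p of 0.128, 0.0661 and 0.283. With 2 FC arrays, the spread within that group is poorly known and was borrowed from the other groups by the model.

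In tongue the slow troponins and the brightest Tpm3 probe set were lower on average in FC than in BG. Tnnc1 had means of 7.06 ± 0.60 in BF (SD, n = 3), 7.96 ± 1.37 in BG (SD, n = 3) and 6.01 ± 0.17 in FC (SD, n = 2). FC minus BG was -1.95 for Tnnc1 (95% interval -3.51 to -0.39, adjusted p = 0.108), -1.49 for Tnni1 (-2.95 to -0.018, adjusted p = 0.208), -0.80 for Tnnt1 (-2.43 to 0.83, adjusted p = 0.632) and -1.67 for Tpm3 (-3.26 to -0.072, adjusted p = 0.19). The Tpm3 probe set 1449996_a_at differed by -2.02 (adjusted p = 0.12). BG replicate 2 lay close to the FC arrays in each of these, and BG replicates 1 and 3 lay above them. Of the other Tpm3 probe sets, 1427567_a_at differed by -0.66 (-1.19 to -0.135, adjusted p = 0.106 in limma), 1427260_a_at by 0.079 and 1436958_x_at by 0.13. Without FC replicate 2 of *longissimus dorsi*, which enters the shared estimate of the spread and no tongue mean, the same differences of Tnnc1 and of 1449996_a_at passed (adjusted p = 0.0286 and 0.0439).

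Tpm2 pointed the other way in this comparison. Its brightest probe set was 12.36, 11.74 and 11.87 in BF, 11.80, 11.56 and 11.94 in BG, and 12.32 and 12.25 in FC, and FC minus BG was 0.52 (0.10 to 0.94, adjusted p = 0.108). For 1419739_at the arrays were at 11.16, 10.90 and 10.91 in BF, 10.45, 10.38 and 10.49 in BG, and 11.03 and 11.00 in FC. All BG arrays lay below all BF and FC arrays. FC minus BG was 0.57 (0.17 to 0.97, adjusted p = 0.0661) and BF minus BG 0.55 (0.19 to 0.91, adjusted p = 0.128), and neither passed. These calls depend on the setting: FC minus BG passed with each muscle fitted alone, with quantile normalization within the muscle, with array weights and among brighter probe sets (adjusted p = 0.0236, 0.0385, 0.0183 and 0.0484), and BF minus BG with array weights (adjusted p = 0.0389). The probe set 1449577_x_at of Tpm2 differed by -0.031 and -0.28. For 1425028_a_at, FC minus BG was 0.43 (0.0106 to 0.849, adjusted p = 0.2 in limma) and BF minus BG 0.091 (-0.284 to 0.466).

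BF minus BG in tongue was -0.90 for Tnnc1 (95% interval -2.30 to 0.50), -1.05 for Tnni1 (-2.36 to 0.27), -0.86 for Tnnt1 (-2.31 to 0.60) and -0.64 for Tpm3 (-2.07 to 0.79). It was between -0.02 and 0.14 for the brightest probe sets of Tnnc2, Tnni2, Tnnt3 and Tpm1. Dimmer probe sets of Tnni2 differed by more in limma: 1438608_at by -0.67 (-1.3 to -0.0335, adjusted p = 0.296) and 1438609_x_at by -0.21 (adjusted p = 0.429). Those of Tpm1 differed by -0.029 and 0.073. Of the listed genes, Mylk2 rose in BF vs. BG by 1.0 (adjusted p = 0.0474), and 0 of 11 slow fibre genes, 0 of 11 thin filament partners and 0 of 18 regulators passed. In FC vs. BG the fast fibre genes Myh4 and Myh1, both myosin heavy chains, and the calcium pump Atp2a1 were higher, by 0.43, 0.46 and 0.38 (adjusted p = 0.0161, 0.0362 and 0.0219), and Tmod1 was lower, at -0.49 (adjusted p = 0.0347). Nfix, Mef2d, Nfatc1 and Hdac5 were higher among the regulators, Nfix by 1.06 (adjusted p = 0.00642). In BF vs. FC the fast fibre genes Myoz1 and Pvalb, a calcium buffer, were higher by 0.45 and 1.58 (adjusted p = 0.0354 and 0.0386), as were Tmod1 and Ppp3cb, and 0 of 11 slow fibre genes passed in FC vs. BG or in BF vs. FC.

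Whether the effect of BF vs. BG differed between *longissimus dorsi* and tongue was tested as an interaction. None of the 20 probe sets passed, against 0.172% of all probe sets, 0 were at an unadjusted p under 0.05, and the smallest adjusted p was 0.442. For Tnni1 the effect in *longissimus dorsi* minus that in tongue was 0.13 (95% interval -1.53 to 1.79), and for Tnnc1 0.24 (-1.53 to 2.01). For Tnnc2 it was -0.088 (-0.328 to 0.152) and for Tnni2 -0.0062 (-0.237 to 0.225). The intervals of the slow genes leave room for a difference of more than 2-fold either way.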

How the data were processed

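The authors deposited 1 log2 value per probe set and array, made from the scans by RMA in Partek, which subtracts background, gives all arrays 1 distribution and summarizes the probes of a set by median polish. The brightest probes can approach saturation. No further normalization or filter was applied, and 0 columns of sample values were left unused. The labels gave each sample's muscle and housing. Nothing states more than 1 tissue sample per array, so p-values measure the spread between these samples. All 22626 probe sets were fitted in limma 3.58.1 (R 4.3.3; 6 groups, 17 residual and 5.12 prior degrees of freedom) with eBayes and Benjamini-Hochberg adjustment across the whole array. Passing means an adjusted p under 0.05, and a probe set was called if it also changed more than 2-fold. The procedure was tested on simulated data.

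Members and gene lists were chosen with earlier results of these data known. Every member probe set is given between the muscles and counted in each comparison. In the housing comparisons, not every dimmer probe set is given with its values. From each list, up to 3 genes with the smallest adjusted p of a comparison are named (brightest probe set), and others of small counts were named after their values were seen. Genes most alike are the 5 of highest Pearson r with the mean of 3 troponins. Summed marker levels are log2 of the sum of the markers' linear values. Alternatives were each muscle fitted alone, no moderation, trended robust moderation, quantile normalization within a muscle, median centring, array weights, a replicate block, brighter probe sets, 1 probe set per gene, each housing group alone and leaving out each array. Promoters and gene order are from RefSeq (GRCm38.p6).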

Additional observations from a re-analysis of the deposited data

Results flagged for a closer look

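Of 60 groups of 5 arrays of *longissimus dorsi* (20 probe sets by 3 housing groups), 6 held an array whose gap to the nearest other took more of the group's range than Dixon's 95% critical value. Chance flags about 1 group in 20, and probe sets that move together are flagged together. FC replicate 2 was the low array in 3 of them, at 8.65 for Tnnt1 (nearest array 11.23), 9.21 for Tnnc1 (nearest 11.71) and 9.11 for Tpm3 1449996_a_at (nearest 11.68). BF replicate 3 was low for Tnnc1, at 10.85 (nearest 12.03). BG replicate 5 was high for Tpm3 1436958_x_at, at 7.73 (nearest 7.04), and BG replicate 4 for Tnni2 1438608_at, at 8.57 (nearest 7.49). The cause of these values was not tested.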

How the results depend on the processing

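Of 5044 values of single probe sets under the alternatives, 4874 kept both direction and side of the threshold, 139 turned in direction but passed in neither fit, 28 passed newly and 3 fell short, and 0 that passed in either fit turned. Counts of passing members rose from 0 to 1 with array weights in each of the 3 comparisons of *longissimus dorsi* and in BF vs. BG of tongue, and to 7 (2 higher, 5 lower) in FC vs. BG of tongue. Among brighter probe sets the count was 1 in FC vs. BG and BF vs. FC of *longissimus dorsi* and in FC vs. BG of tongue. Leaving out each array gave 0 to 1 in FC vs. BG of *longissimus dorsi* (1 without BG replicate 5 or FC replicate 1), 0 to 1 in BF vs. FC (1 without BF replicate 1, BG replicate 5 or FC replicate 1) and 0 to 2 in FC vs. BG of tongue (2 without FC replicate 2 of *longissimus dorsi*, 1 without BG replicate 2 or 3 of tongue). In *longissimus dorsi* the new call was Tpm1 1456623_at, except Tpm2 1449577_x_at in BF vs. BG. FC vs. BG of tongue also gave 2 with each muscle fitted alone and 1 with quantile normalization within the muscle. With 1 probe set per gene, 9 of 9 passed between the muscles. The cause was not tested beyond the smaller number of probe sets in that last setting. Leaving out an FC tongue array leaves 1, assumed to vary like the other groups.

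Deviations of 46 same-numbered pairs of arrays from different groups correlated by -0.23 to 0.545 (median 0.0186). The median of differently numbered pairs was -0.0112. Most of the same-numbered pairs join different housing groups, so these values cannot show whether the muscles came from the same mice. With a replicate block, FC vs. BG of tongue gave 2, Tpm2 1419738_a_at and 1419739_at (adjusted p = 0.0479 and 0.0208), and no other count of members moved. Median centring moved the median difference of all probe sets between the muscles from 0.155 to 0.252. The number of arrays, above all the 2 FC tongue arrays, limits the precision.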
